A study of Mus musculus with 19 samples.

Results

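Genes that handle iron in the brain, 9 in all, were followed through RNA-seq of the mouse hippocampus: Fth1, Ftl1, Tfrc, Trf, Slc40a1, Slc11a2, Hmox1, Cp and Ireb2. They were listed by name, with no measured value in the rule but with earlier results of these data known, and their Ensembl identifiers were looked up in GENCODE M21. All 9 were present among the 48709 gene rows of each library and passed the count filter that left 19297 genes for testing. The tissue was the CA1 region, microdissected from mice of 7 months after lipid nanoparticles had been injected into the dorsal hippocampus. The WT control group (n = 6) held wild-type littermates, and the APP control group (n = 6) held APPPS1-21 mice, whose transgenes include a Thy1-driven human APP gene with the Swedish mutation and which deposit amyloid. The APP anti-miR-mix group (n = 7) held APPPS1-21 mice given a mixture of inhibitors of 3 microRNAs, of which miR-148a-3p is one and miR-146a-5p and miR-181a-5p are the others. Below, these are called the WT group, the APP group and the mix group, and single libraries keep their full names. Both control groups received control oligonucleotides in the same kind of particle according to the study, although the sample titles of the wild-type libraries also name the mixture. All groups were therefore injected, and an uninjected group was not analysed here. Thy1 sequences of this kind are known to drive expression mainly in neurons.

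Brain cells take up iron bound to transferrin, the product of Trf, through the transferrin receptor Tfrc, and the divalent metal transporter Slc11a2 moves it out of the endosome. Iron not in use is stored inside ferritin, a hollow shell of the heavy chain Fth1, which oxidizes iron, and the light chain Ftl1. Ferroportin, encoded by Slc40a1, is the known exporter and works with ceruloplasmin, the ferroxidase Cp. Haem oxygenase 1, encoded by Hmox1, frees iron from haem and is induced by oxidative and inflammatory stress, and Ireb2 encodes an iron regulatory protein that binds hairpins in messenger RNA. Such hairpins, the iron responsive elements, repress translation when they lie in a 5′ UTR and protect the message from decay when they lie in a 3′ UTR.

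The hairpins that a strict search found in the 9 genes are shown because they are the sequences through which this control works. The search used the untranslated regions of GENCODE M21 transcripts on GRCm38 and read the transcript strand for a C, 5 bases, the loop CAGTGN with a last base other than G, and 5 bases that pair with the first 5, G-T pairs allowed. Capitals mark the loop. The element of Fth1 lies at chr19:9982733-9982759 on the plus strand, that of Ftl1 at chr7:45459780-45459806 on the minus strand and that of Slc40a1 at chr1:45925466-45925492 on the minus strand, all in 5′ UTRs.
Fth1: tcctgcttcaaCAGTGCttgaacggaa
Ftl1: tcttgcttcaaCAGTGTttgaacggaa
Slc40a1: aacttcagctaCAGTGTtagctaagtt
Tfrc held 4 matches in its 3′ UTR, at chr16:32631220-32631246, chr16:32631599-32631625, chr16:32631664-32631690 and chr16:32631711-32631737 on the plus strand, in this order.
Tfrc hairpin a: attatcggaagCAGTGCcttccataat
Tfrc hairpin b: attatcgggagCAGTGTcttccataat
Tfrc hairpin c: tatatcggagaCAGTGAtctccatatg
Tfrc hairpin d: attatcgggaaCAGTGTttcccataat
Of 21901 protein-coding genes, 0.105% held a match in a 5′ UTR and 0.457% in a 3′ UTR. Trf, Slc11a2, Hmox1, Cp and Ireb2 held none, which says only that these letters are not in those windows.

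The 3 microRNAs that the mixture targets are shown with their seed, bases 2 to 8, in capitals, as RefSeq gives them on GRCm38.p6.
miR-146a-5p: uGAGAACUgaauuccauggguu
miR-148a-3p: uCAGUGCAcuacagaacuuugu
miR-181a-5p: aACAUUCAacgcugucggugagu
Complements of a seed were found in the 3′ UTRs of 4 of the 9 genes. Slc11a2 held 1 for miR-146a-5p and 1 for miR-148a-3p in different annotated transcripts, Cp held 1 for miR-148a-3p, Slc40a1 held 1 for miR-181a-5p, and Ireb2 held 1 each for miR-148a-3p and miR-181a-5p in the same transcript. The 2 that were followed by an A opposite the first base of the microRNA are shown, with the seed complement in capitals, for Cp at chr3:19992723-19992729 in transcript Cp-202 and for Ireb2 at chr9:54911800-54911806, both on the plus strand.
Cp site for miR-148a-3p: cccacttatcTGCACTGaaagg
Ireb2 site for miR-181a-5p: atcagtattcTGAATGTagcac
Such a match stood in a 3′ UTR of 11.4% of protein-coding genes for AGTTCTC (miR-146a-5p), 12.9% for TGCACTG (miR-148a-3p) and 16.6% for TGAATGT (miR-181a-5p), so single matches are common.

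Libraries held 19362343 to 37018917 counts. Thy1, whose sequence drives the transgenes, ranged from 18117 to 20734 normalized counts in the WT group and from 36153 to 62866 over both transgenic groups, and App separated the genotypes in the same way. All neuron and CA1 pyramidal cell markers listed were detected in every library. Summed microglial markers, 8 genes, ranged from 12788 to 20397 normalized counts in the WT group, from 19997 to 41539 in the APP group and from 26105 to 40893 in the mix group. In bulk tissue, fewer cells of a type and less RNA per cell cannot be told apart. APP control 5 and APP control 6 had the lowest sums of 8 amyloid-responsive microglial genes among the transgenic libraries, 13438 and 17873, while APP control 5 also had the highest sum of blood genes, 2715.

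Levels between genes were compared as RPKM, counts scaled by exon length and by library total, averaged over the 19 libraries. Fth1 stood far above the rest at 473 ± 73.3 RPKM (SD). Tfrc followed at 19.9 ± 4.63, Slc11a2 at 12.1 ± 0.438, Ireb2 at 7.81 ± 1.41, Trf at 7.54 ± 2.23 and Hmox1 at 5.90 ± 1.67 RPKM. Cp at 3.44 ± 1.39, Ftl1 at 1.39 ± 0.252 and Slc40a1 at 1.17 ± 0.208 RPKM closed the order. The ranges of neighbours in this order overlapped except between Fth1 and Tfrc and between Slc11a2 and Ireb2. The low place of Ftl1 sits beside a sequence limit. Of the 919 stretches of 50 bases, the read length, in its main transcript, 833 (90.6%) also occurred in transcripts of 17 other genes, and the gene had only 32 to 76 raw counts in any library. The processed copy with the most shared stretches, Ftl1-ps1, had at most 1 count, so the reads had not been assigned to it. Trf had the same limit, with 79.8% of its stretches shared with the overlapping gene model Gm20425 on the same strand, which had no count. The share was 6.59% for Fth1, 2.02% for Slc11a2 and 1.48% for Cp and 0 for the other 4. How the counting treated reads that fit several places was not given in the sources used here, so the levels of Ftl1 and Trf are uncertain, and their part in the low counts was not tested.

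The comparison of the APP group with the WT group asked which iron genes differ in mice with amyloid. Hmox1 was the only one of the 9 that passed the test, against a background of 4.71% of all genes called (908 of 19297), and 1 of 9 cannot be set apart from that share. It was higher in the APP group, and by a similar amount in the mix group, where 1 of 9 was called against 8.95% of all genes (1727 of 19297). Between the mix group and the APP group DESeq2 called none of the 9 and none of all genes (0%). None of the 9 passed an unadjusted p of 0.05 in that comparison with DESeq2 or edgeR either, and edgeR also called 0 genes, while 552 of all genes (2.86%) passed it unadjusted with DESeq2 and 572 (2.96%) with edgeR. The median log2 fold change of the 9 was 0.13 in the APP group and 0.08 in the mix group against the WT group, beside −0.01 and −0.02 over all genes tested. The 2 comparisons share the WT group libraries, so their values are set side by side only. The labels do not say that each library came from its own animal, so p-values measure only the spread between these samples.

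**Figure D1:**
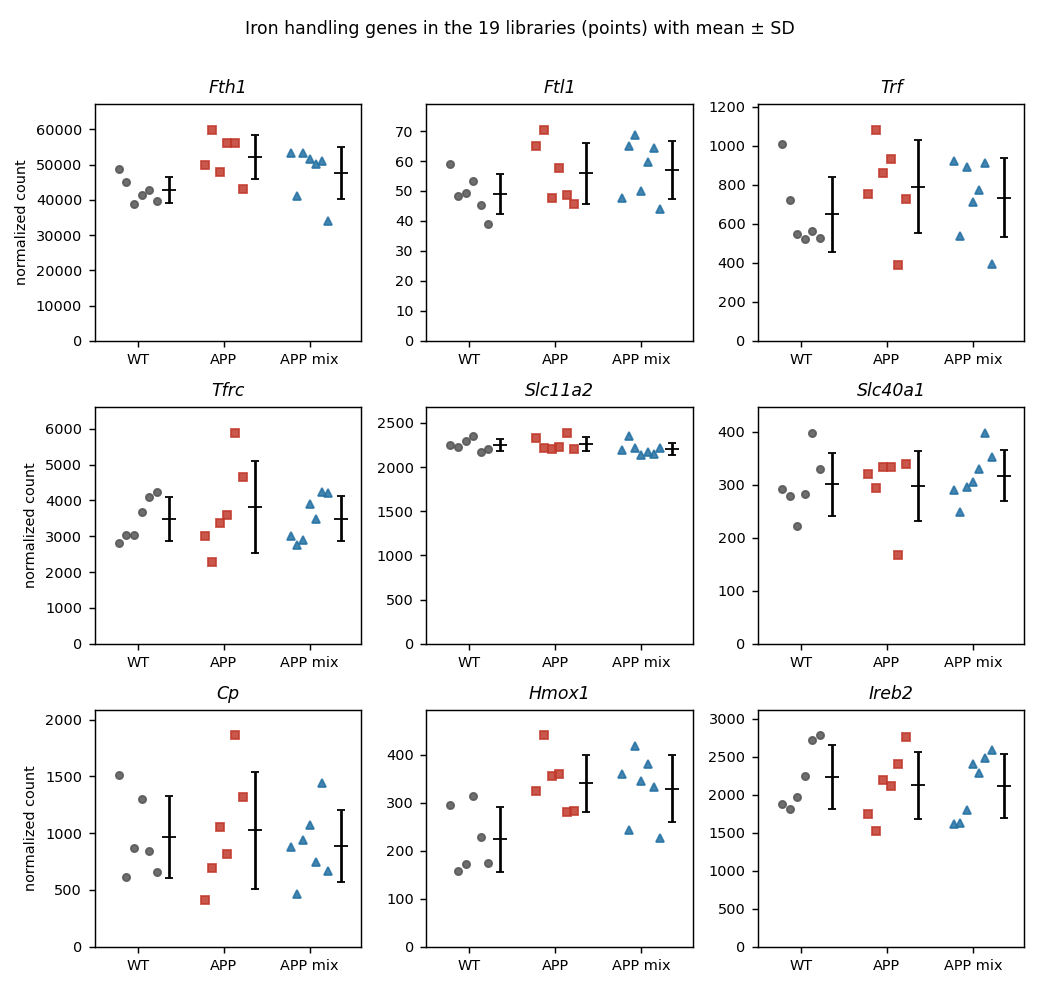
Normalized counts of the 9 iron handling genes in each library of WT control (grey circles), APP control (red squares) and APP anti-miR-mix (blue triangles), with the mean ± SD of each group in black. Hmox1 sits lowest in WT control (157 to 314) and between 227 and 440 in the transgenic groups, and Slc11a2 varies least.

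Hmox1 (ENSMUSG00000005413, chr8:75093621-75100589, plus strand) ranged from 157 to 314 normalized counts in the WT group with a median of 202. In the APP group it ranged from 280 to 440 with a median of 340, and in the mix group from 227 to 419 with a median of 345. All 6 APP group and all 7 mix group libraries lay above the WT group median, but the groups overlapped because WT control 1 and WT control 4 reached 294 and 314. The mean rose from 224 ± 67.3 (SD, n = 6) in the WT group to 340 ± 59.7 (n = 6) in the APP group, 1.52-fold, with a log2 fold change of 0.60 (SE 0.18, adjusted p = 0.0263, DESeq2). In the mix group it was 330 ± 70.4 (n = 7), 1.47-fold above the WT group, with a log2 fold change of 0.55 (SE 0.18, adjusted p = 0.0238). Against the APP group the difference of the mix group was −0.05 on the log2 scale, with a 95% interval from −0.39 to 0.30. With edgeR the same folds did not pass, with adjusted p of 0.0815 and 0.0639, so edgeR called 0 of the 9 in both comparisons (2 and 1 at an unadjusted p under 0.05), against 3.22% and 6.06% of all genes.

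The Hmox1 call depended on single libraries. For the APP group it was lost without WT control 2 (adjusted p = 0.0916), 3 (0.0858) or 6 (0.0979) and without APP control 2 (0.118), 3 (0.0675) or 4 (0.0688), with log2 fold changes of 0.51 to 0.72 over the 19 fits that left out 1 library. For the mix group it was lost without WT control 2 (0.0779), 3 (0.0687) or 6 (0.0867) and without APP anti-miR-mix 1 (0.0561), 3 (0.0694) or 5 (0.0612), with log2 fold changes of 0.47 to 0.68. Microglial markers moved with Hmox1: 6 of 8 listed rose in the APP group and 7 of 8 in the mix group, as did 8 of 8 amyloid-responsive genes in both, whose sums ranged from 7826 to 14191 in the WT group, 13438 to 48553 in the APP group and 25528 to 46765 in the mix group. Of 6 astrocyte markers only Gfap rose. The 2 APP group libraries with the lowest amyloid-responsive sums, 5 and 6, also had the lowest Hmox1 of that group, 280 and 282. The part of these cells in the Hmox1 result was not tested.

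**Figure D2:**
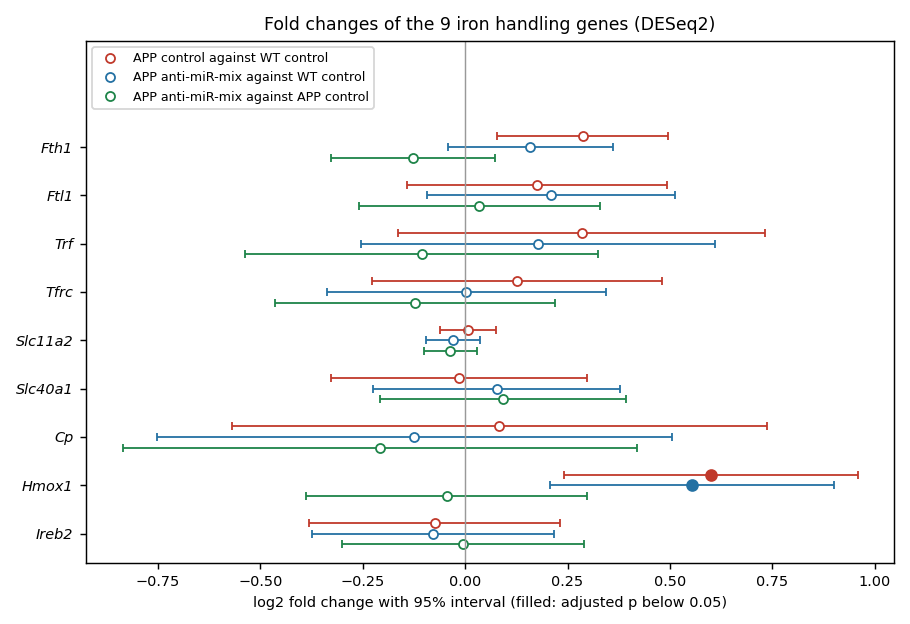
Log2 fold changes (points) and 95% intervals (bars) of the 9 genes from DESeq2, for APP control against WT control (red), APP anti-miR-mix against WT control (blue) and APP anti-miR-mix against APP control (green), with filled points for an adjusted p below 0.05. Both filled points belong to Hmox1, at 0.60 and 0.55, and the interval of Slc11a2 is the narrowest.

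Ferritin heavy chain Fth1 (ENSMUSG00000024661, chr19:9980598-9985098, plus strand) ranged from 38764 to 48834 normalized counts in the WT group with a median of 42097. It ranged from 43133 to 59985 in the APP group with a median of 52987, and from 34028 to 53394 in the mix group with a median of 50926. Every APP group library exceeded the WT group median, with overlap of the groups, and APP anti-miR-mix 7 was the lowest of all 19 libraries. The log2 fold change was 0.29 in the APP group (SE 0.11, 95% interval 0.08 to 0.50) with an adjusted p of 0.103, which misses the threshold, and 0.16 in the mix group (interval −0.04 to 0.36, adjusted p = 0.418). The APP group difference passed without WT control 1 (adjusted p = 0.0446), without APP control 6 (0.0296) and without APP anti-miR-mix 7 (0.0210). It also passed with only the 2 groups compared in the fit (0.0367). With the replicate number added to the fit both differences passed, at 0.29 (0.0146) in the APP group and 0.23 (0.0483) in the mix group. Between the mix group and the APP group the value was −0.13 (interval −0.33 to 0.07), and −0.06 without APP anti-miR-mix 7 (interval −0.23 to 0.11). Oligodendrocyte markers, cells rich in ferritin, showed 0 of 8 called in each comparison with DESeq2, and their sums ranged from 174211 to 294065 in the WT group, 161203 to 277659 in the APP group and 141457 to 291950 in the mix group, lowest in the library that was lowest for Fth1.

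Ferritin light chain Ftl1 (ENSMUSG00000050708, chr7:45457944-45459884, minus strand) had a range of 38.8 to 58.9 normalized counts in the WT group, 45.8 to 70.5 in the APP group and 44.0 to 68.6 in the mix group. The medians were 48.8, 53.1 and 59.6, and the groups overlapped widely. Its log2 fold changes against the WT group were 0.18 in the APP group (95% interval −0.14 to 0.49) and 0.21 in the mix group (interval −0.09 to 0.51), not past the threshold. Over the fits that left out 1 library they ran from 0.10 to 0.24 and from 0.15 to 0.27. Within a library the log2 ratio of Fth1 to Ftl1 counts was 9.78 ± 0.160 in the WT group, 9.88 ± 0.203 in the APP group and 9.71 ± 0.279 in the mix group (SD). No difference in this ratio passed a two-sided exact permutation test, the smallest p being 0.254 between the transgenic groups (adjusted over 6 ratio tests, 0.734). Given the shared sequence, the ratio is one of assigned reads and not of the 2 messages.

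The genes of iron uptake gave no call. Transferrin, Trf (ENSMUSG00000032554, chr9:103204001-103230444, minus strand), ranged from 524 to 1011 normalized counts in the WT group with a median of 557, from 388 to 1084 in the APP group with a median of 807, and from 393 to 922 in the mix group with a median of 772. WT control 1 was high for its group, and APP control 5 and APP anti-miR-mix 7 were low for theirs. Log2 fold changes were 0.28 (95% interval −0.16 to 0.73) in the APP group and 0.18 (interval −0.25 to 0.61) in the mix group against the WT group. Without APP control 5 the first became 0.42 (interval 0.02 to 0.83, adjusted p = 0.320). Over the fits that left out 1 library it ran from 0.18 without APP control 2 to 0.46 without WT control 1, and the second from 0.12 without APP anti-miR-mix 1 to 0.35 without WT control 1, with no call.

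Transferrin receptor, Tfrc (ENSMUSG00000022797, chr16:32608920-32632794, plus strand), ranged from 2816 to 4247 normalized counts in the WT group with a median of 3366. The APP group range was 2294 to 5894 with a median of 3484, and the mix group range was 2745 to 4243 with a median of 3470. The APP group held both the lowest and the highest library, APP control 2 and APP control 5. The log2 fold changes against the WT group were 0.13 (95% interval −0.23 to 0.48) and 0.00 (interval −0.34 to 0.34), and that of the APP group turned to −0.04 without APP control 5 and reached 0.24 without APP control 2. The log2 ratio of Tfrc to Fth1 counts, which sets a message with 3′ hairpins against one with a 5′ hairpin, was −3.63 ± 0.333 in the WT group, −3.84 ± 0.558 in the APP group and −3.78 ± 0.397 in the mix group. Its differences were below the spread between libraries, the smallest p of the two-sided exact permutation tests being 0.470 (adjusted p = 0.734).

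The endosomal transporter Slc11a2 (ENSMUSG00000023030, chr15:100387898-100425072, minus strand) was the steadiest of the 9. It ranged from 2167 to 2356 normalized counts in the WT group, 2201 to 2391 in the APP group and 2140 to 2351 in the mix group, with medians of 2240, 2222 and 2198. Log2 fold changes were 0.01 (95% interval −0.06 to 0.07), −0.03 (interval −0.09 to 0.04) and, between the transgenic groups, −0.04 (interval −0.10 to 0.03). The intervals were the narrowest of the 9 in each of the 3 comparisons.

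Among the export genes, ferroportin, Slc40a1 (ENSMUSG00000025993, chr1:45908068-45926523, minus strand), ranged from 223 to 399 normalized counts in the WT group, 167 to 339 in the APP group and 250 to 399 in the mix group. The medians were 287, 327 and 305, and APP control 5, at 167, lay far below the other 5 of its group (293 to 339). Its log2 fold change in the APP group was −0.02 (95% interval −0.33 to 0.30) and became 0.11 without that library (interval −0.15 to 0.36). In the mix group it was 0.08 against the WT group (interval −0.22 to 0.38) and 0.09 against the APP group (interval −0.21 to 0.39). The first ran from 0.00 without WT control 3 to 0.18 without WT control 5, and the second turned to −0.03 without APP control 5. Ceruloplasmin, Cp (ENSMUSG00000003617, chr3:19957054-20009145, plus strand), varied most, from 614 to 1511 normalized counts in the WT group, 407 to 1860 in the APP group and 467 to 1445 in the mix group, with medians of 857, 934 and 880. The highest library was again APP control 5, and Hps3 overlaps the exons of Cp on the other strand. Log2 fold changes of Cp were 0.08 (95% interval −0.57 to 0.74) and −0.12 (interval −0.75 to 0.50) against the WT group, and −0.21 (interval −0.84 to 0.42) between the transgenic groups, the widest of the 9. Each of the 3 changed sign when 1 library was left out: the first was −0.17 and the third 0.05 without APP control 5, and the second was 0.05 without WT control 1.

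Markers of the choroid plexus, which makes transferrin and ceruloplasmin, differed between libraries. The 8 markers summed to 607 to 2613 normalized counts in the WT group, 627 to 856 in the APP group and 631 to 1802 in the mix group. The highest sums were in WT control 5 and APP anti-miR-mix 6. Kl had the highest median of the 8, 475, beside 55.0 for Ttr, so the lower sums depend heavily on Kl. Kcnj13, Folr1 and Otx2 were at 0 in 3, 2 and 4 libraries. None of the 6 tested markers of this list was called in any comparison with DESeq2. Without WT control 5 and APP anti-miR-mix 6 the Hmox1 differences from the WT group were 0.61 (adjusted p = 0.0560) and 0.56 (0.0727) on the log2 scale, of the same size but no longer called, and no other member was called. The 2 libraries had Slc40a1 at 399 each, the highest values of all 19.

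The regulator Ireb2 (ENSMUSG00000032293, chr9:54863789-54912530, plus strand) ranged from 1816 to 2779 normalized counts in the WT group with a median of 2107. It ranged from 1528 to 2753 in the APP group with a median of 2156 and from 1611 to 2592 in the mix group with a median of 2286. The groups covered nearly the same span. Log2 fold changes were −0.07 (95% interval −0.38 to 0.23) and −0.08 (interval −0.37 to 0.22) against the WT group and 0.00 (interval −0.30 to 0.29) between the transgenic groups, with ranges of −0.16 to 0.00, −0.13 to −0.01 and −0.08 to 0.08 over the fits that left out 1 library, the last comparison in a message with seed complements of 2 of the targeted microRNAs.

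The levels of Ireb2 and Tfrc moved with a number that belongs to the library and not to its group. The deposited normalized table carries a whole number from 1 to 5 for each library, called the adjustment number here, whose meaning is not stated. Each of the numbers 1 to 4 holds libraries of all 3 groups, and 5 holds WT control 6 alone. Ireb2 averaged 1746 normalized counts at number 1, 1750 at 2, 2249 at 3, 2589 at 4 and 2779 in the library at 5. Tfrc averaged 2949, 2802, 3602, 4618 and 4247 in the same order, and Trf went the other way, at 895, 757, 761, 597 and 528. Slc11a2 stayed between 2208 and 2260.

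Within a number the comparisons keep the groups and drop this difference, with only 1 or 2 libraries of each group at a number. Hmox1 was higher in the APP group than in the WT group within 4 of 4 numbers, by 0.14 to 1.41 on the log2 scale, and higher in the mix group in 4 of 4, by 0.20 to 0.95. Fth1 was higher in the APP group in 4 of 4, by 0.03 to 0.52, and higher in the mix group in 3 of 4. Ireb2 was lower in the APP group in 4 of 4, with log2 differences of −0.31 to −0.06. When the number entered the DESeq2 fit as a factor, Hmox1 stayed called (log2 fold changes 0.55 and 0.51, adjusted p = 0.0488 and 0.0371), Fth1 was not called (0.29 and 0.15, adjusted p = 0.130 and 0.462), and the Ireb2 difference in the APP group was −0.14 (95% interval −0.26 to −0.02, adjusted p = 0.181). Tfrc was 0.01 (interval −0.18 to 0.20) in that fit. Because number 5 holds WT control 6 alone, the fit also takes that library out of the group differences.

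**Figure D3:**
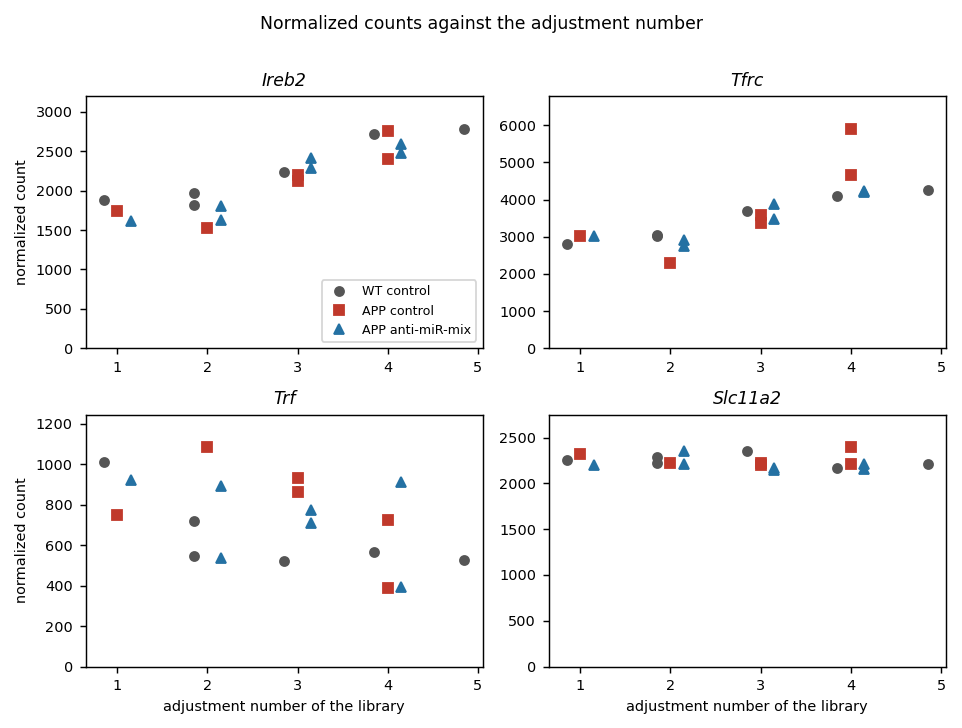
Normalized counts of Ireb2, Tfrc, Trf and Slc11a2 against the adjustment number of each library, for WT control (grey circles), APP control (red squares) and APP anti-miR-mix (blue triangles). Ireb2 and Tfrc are higher and Trf is lower on average at number 4 than at number 1 in all 3 groups, while Slc11a2 keeps its level.

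Correlations over the 19 libraries, centred on the group means, describe which of the members moved together, without Ftl1, whose mean was below 100 normalized counts. They share library depth and tissue make-up and are given with no test. The highest of these pairs was that of Tfrc and Ireb2, with r of 0.89, which fell to 0.25 when values were centred on the adjustment number as well. Fth1 and Hmox1 had r of 0.65, Fth1 and Trf 0.64 and Trf and Hmox1 0.62, which became 0.61, 0.54 and 0.56 with that second centring. Slc40a1 and Slc11a2 ran opposite, at −0.73 and −0.71. Trf and Slc11a2 went from −0.52 to −0.80 with the second centring, and Tfrc and Slc40a1 from −0.01 to −0.80. APP control 5 had the highest Tfrc and Slc11a2 and the lowest Trf and Slc40a1 of the 19 libraries. Its weight in these values was not tested.

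The genes most like each member, of 12764 with a mean of at least 100 normalized counts, were read in the same centred values, so Ftl1 was not compared. Trf was most like Adamtsl4 (r of 0.97), Ppp1r14a (0.96) and Mag (0.96), a myelin gene and one of the oligodendrocyte markers. Hmox1 was most like Capg (0.93), Arrdc4 (0.92) and Ifi27 (0.91). Slc40a1 went with Hpgd (0.94), the astrocytic water channel Aqp4 (0.90) and Fermt2 (0.90), with APP control 5, where Slc40a1 was lowest, included. Cp went with Cyp1b1 (0.92), Serping1 (0.90) and Tgfbi (0.87). Fth1 was most like Myd88 (0.87), Pnpla7 (0.86) and Psph (0.86), and Slc11a2 most like Tspyl2 (0.90), Snapc4 (0.88) and Jakmip1 (0.87). Tfrc was most like Dnajb4 (0.96), Zfp160 (0.96) and Guf1 (0.95), and Ireb2 most like Cdc73, Yme1l1 and Thoc2 (0.99 each). With the second centring the values for Tfrc became 0.88, 0.76 and 0.68 and those for Ireb2 0.92, 0.88 and 0.87, whereas Trf kept 0.97, 0.95 and 0.96.

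Set beside summed cell type markers in the same centred values, Trf followed the oligodendrocyte sum with r of 0.89. Hmox1 followed the astrocyte sum with r of 0.73 and the microglial sum with 0.71, and Fth1 followed them with 0.62 and 0.56 and the oligodendrocyte sum with 0.60. Tfrc, through which brain endothelium takes up transferrin, and Cp had their highest r with the endothelial sum, 0.73 and 0.67. APP control 5 was the highest library for all 3, and without it these values were 0.57 and 0.54. Slc11a2 ran against the oligodendrocyte sum, at −0.75, over its narrow range. Without APP control 5 that value was −0.68, and Slc11a2 with the endothelial sum went from −0.15 to −0.75. Slc40a1 with the endothelial sum went from −0.09 to 0.79 when APP control 5 was left out. Its r with the astrocyte sum went from 0.49 to 0.31 and that with the amyloid-responsive sum from 0.45 to 0.01. The Fth1 values without that library were 0.77, 0.76 and 0.76 in the order given. The 19 libraries are the same for all lists, and the part of any cell type in a gene's level was not tested.

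**Figure D4:**
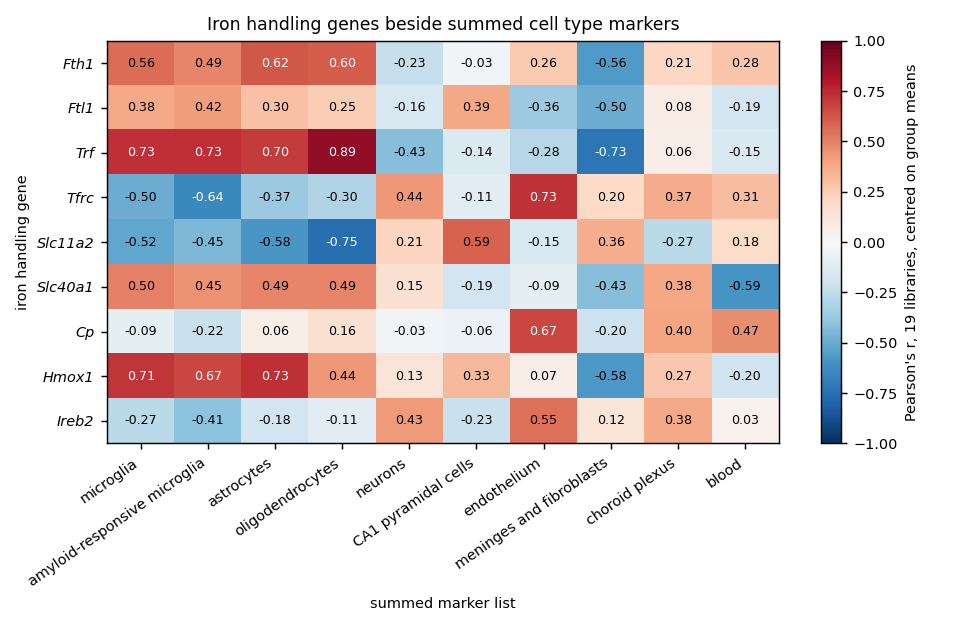
Pearson's r over 19 libraries between the log2 normalized count of each iron gene and the log2 summed count of each cell type marker list, both centred on group means (red positive, blue negative). The highest value is that of Trf with oligodendrocytes (0.89), and the lowest that of Slc11a2 with oligodendrocytes (−0.75).

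The other iron genes came from a list of 44, of which 40 were tested and Ftmt, Hephl1, Hamp and Hamp2 were too low. Of the 40, 3 (7.5%) rose in the APP group and none fell, beside the 4.71% of all genes. With edgeR 1 of 40 (2.5%) was called, beside 3.22% of all genes. Over all genes 3.66% were called higher and 1.05% lower by DESeq2. In the mix group, 5 rose and 1 fell (15%) against the WT group, beside 8.95% of all genes (5.59% higher, 3.36% lower). There edgeR called 3 (7.5%), beside 6.06% of all genes. These counts were not tested against the shares of all genes. Between the transgenic groups DESeq2 called 0 of 40, with 0 at an unadjusted p under 0.05, and edgeR called 0, with 1 unadjusted. The median log2 fold change of the 40 was 0.01 in the APP group against −0.01 over all genes. Hjv, 1 of the 40, was given no adjusted p by DESeq2 in both comparisons with the WT group because of its low counts.

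The 3 genes that rose in the APP group were listed under uptake and entry, 3 of 13 (23.1%) beside 3.66% of all genes called higher. In the mix group it was also 3 of 13, beside 5.59%. No role was tested against these shares. Cybrd1, a ferric reductase, rose from 171 ± 40.4 (SD, n = 6) normalized counts in the WT group to 327 ± 61.7 (n = 6) in the APP group, a log2 fold change of 0.92 (SE 0.15, adjusted p = 3.58e-07), and to 289 ± 42.2 (n = 7) in the mix group, 0.74 (SE 0.15, adjusted p = 3.08e-05), and edgeR called both. Cd163, the haemoglobin scavenger receptor of macrophages, rose from 20.03 ± 7.11 to 47.0 ± 30.9 in the APP group, a log2 fold change of 1.23 (adjusted p = 0.0182), and to 43.6 ± 13.8 in the mix group, 1.11 (adjusted p = 0.0204). The Cd163 calls were lost with edgeR (adjusted p = 0.0694 and 0.0663) and when the adjustment number was added to the model (0.144 and 0.0865) and with limma on the deposited normalized table (0.0957 and 0.0526), and without APP control 5 the first log2 fold change fell to 0.85 (0.122). It was lost too without WT control 2 (0.0512), WT control 6 (0.0722) or APP control 3 (0.0692), and the second without WT control 2 (0.0513), WT control 6 (0.0758) or APP anti-miR-mix 1 (0.0586).

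The zinc and iron transporter Slc39a14 rose from 1444 ± 84.7 to 1662 ± 141 normalized counts in the APP group, a log2 fold change of 0.20 (adjusted p = 0.0287), and stood at 1562 ± 95.7 in the mix group, 0.11 (adjusted p = 0.281). Its call was lost with edgeR (0.0621), with only the 2 groups compared in the fit (0.0746), without WT control 5 and APP anti-miR-mix 6 together (0.0802) and in 8 of the 19 fits that left out 1 library, with adjusted p up to 0.116: those without WT control 2, 3, 5 or 6 and without APP control 1, 2, 3 or 4. Steap3, the endosomal ferric reductase, rose in the mix group against the WT group, from 174 ± 23.8 to 247 ± 32.7, a log2 fold change of 0.50 (SE 0.14, adjusted p = 0.00918), which held in all 19 such fits and with edgeR (0.0337). In the APP group its log2 fold change was 0.28 (adjusted p = 0.397), 0.39 without APP control 5 (0.0266) and 0.19 without APP control 3 (0.742). The difference between the transgenic groups, 0.22, was not called (adjusted p = 1.00) and ran from 0.10 without APP control 5 to 0.31 without APP control 3.

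The regulators Bmp6 and Hfe and the haem gene Fech completed the calls of the mix group against the WT group. Bmp6, the signal for hepcidin, rose from 106 ± 28.9 to 175 ± 42.1 normalized counts, a log2 fold change of 0.72 (SE 0.21, adjusted p = 0.0109, edgeR 0.0413), and was lost without WT control 6 (0.0501) and when the adjustment number was added to the model (0.0641). In the APP group its value was 0.52 (adjusted p = 0.180), 0.67 without WT control 5 (0.0423) and 0.33 without APP control 3 (0.561). Hfe, a partner of the transferrin receptor, rose from 179 ± 30.9 to 243 ± 46.0, a log2 fold change of 0.43 (adjusted p = 0.0392), and had nearly the same value, 0.44, in the APP group without a call (adjusted p = 0.0751). The Hfe call was lost with edgeR (0.0780), when the adjustment number was added (0.0748), without WT control 5 and APP anti-miR-mix 6 together (0.0502) and in 8 of the 19 fits that left out 1 library, those without WT control 2, 3, 4 or 6 and without APP anti-miR-mix 1, 4, 5 or 6, with adjusted p up to 0.113. The APP group value of Hfe was called without WT control 1 (0.0277) or 5 (0.0425) and without APP control 5 (0.0478) or 6 (0.0206). It was also called with the replicate number added to the fit (0.0427). Fech, the enzyme that puts iron into haem, fell by 0.12 on the log2 scale, from 2004 ± 106 to 1843 ± 41.7 (adjusted p = 0.0309), which was lost with edgeR (0.127), with TMM size factors in DESeq2 (0.0722), with limma on the deposited normalized table (0.189), when the adjustment number was added (0.0510), without WT control 5 and APP anti-miR-mix 6 together (0.121) and in 7 of the 19 fits, those without WT control 1, 2, 5 or 6 and without APP anti-miR-mix 1, 4 or 7. In the same comparison 3 of 5 markers of meninges and fibroblasts and 2 of 6 endothelial markers were higher and 1 of 6 neuron markers was lower, beside the microglial markers above. The sums of the meninges and fibroblast markers ranged from 1752 to 4745 normalized counts in the WT group and 2440 to 6262 in the mix group, those of endothelium from 3415 to 4666 and 3477 to 5146, and those of neurons from 241136 to 298816 and 236991 to 249663. In the APP group the counts were 0 of 5, 1 of 6 and 1 of 6. Their part in these calls was not tested. Storage, export and iron-sulfur cluster genes, 13 tested, gave no call in any comparison with DESeq2. Over all genes 4.71% were called in the APP group, 8.95% in the mix group and 0% between the transgenic groups. The lack of calls among these 13 cannot be set apart from those shares.

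**Figure D5:**
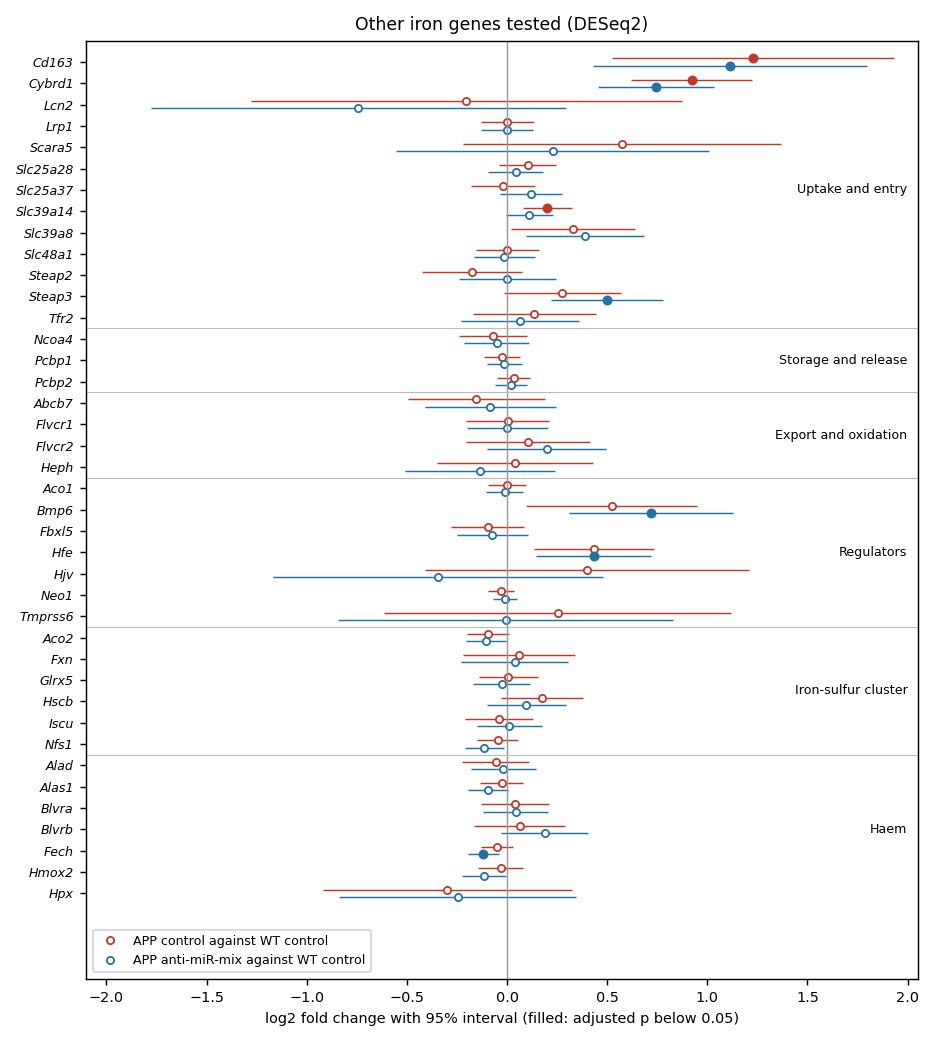
Log2 fold changes (points) and 95% intervals (bars) from DESeq2 of the 40 other iron genes tested, by role, for APP control (red) and APP anti-miR-mix (blue) against WT control, with filled points for an adjusted p below 0.05. Cd163 and Cybrd1 are filled in both, Slc39a14 in APP control only, and Steap3, Bmp6, Hfe and Fech in APP anti-miR-mix only, and between the transgenic groups none of the 40 was called.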

How the data were processed

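CA1 tissue of 3 groups was sequenced as 50-nt single-end reads from poly(A) RNA (TruSeq v2). The deposited raw counts per Ensembl gene were made by the authors with STAR (2.5.2b) on mm10 and featureCounts (Subread 1.5.1); annotation release, strand and multi-mapping settings are not given in the sources used here. A second deposited table holds normalized log2 values of the authors for 18825 genes and equals log2(CPM + 1) minus a whole number per library times a slope per gene (largest residual 0.000749); it was used only to read that number and as an alternative. Identifiers were matched to GENCODE M21 (48349 of 48709). No row was left out of library totals.

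The genes that reached 5 counts in 50% of the samples or more were tested with DESeq2 (1.42.0), as in the study's methods, with 1 fit over the 3 groups, the Wald test, log2 fold changes left unshrunken and Benjamini-Hochberg adjusted p below 0.05 over all genes, and 95% Wald intervals. Normalized counts are counts divided by DESeq2 size factors, and correlations used log2(normalized count + 1). RPKM used the exon union, which lowers levels of genes with long minor isoforms. Alternatives were edgeR (4.0.16) quasi-likelihood, limma (3.58.1), other filters, size factors and factors, and each library left out. Scripts were tested on simulated data. Even the most alike libraries (chi-square per gene 4.46) differed beyond sampling noise. The members, the gene lists and the within-number values were chosen with earlier results of these data known. All 9 members are described, every other iron gene past the threshold is named, and the 3 most correlated genes are named per member. A further transgene of the APPPS1-21 line is not reported here.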

Additional observations from a re-analysis of the deposited data

Results flagged for a closer look

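Groups of values examined numbered 33, which is more than the 9 genes in 3 animal groups make. In 2 of the 33, 1 library lay apart from the rest by Dixon's test at its 95% critical value, where chance alone gives about 1.65. Slc40a1 in APP control 5 was at 166.8 normalized counts, against 293 to 339 in the other 5 APP control libraries. The same library had the highest Tfrc (5894) and Cp (1860) and the lowest Trf (388) of the 19, and the highest sums of blood (2715) and endothelial markers (6500). Slc11a2 in APP anti-miR-mix 2 was at 2351 normalized counts, against 2140 to 2216 in the other 6 libraries of its group.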

How the results depend on the processing

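Of the 9 genes, 0 instead of 1 were called in both comparisons with WT control under edgeR and without WT control 5 and APP anti-miR-mix 6. With only the groups compared 2 were called in APP control. Leaving out 1 library gave 0 to 2 in APP control and 0 to 1 in APP anti-miR-mix. Apart from edgeR, the share of all genes called in these fits is not given here. A change in the members can therefore not be told from a change in calls over all genes. Replicate numbers were not taken to pair the samples, since the deviations of libraries with the same number had r from −0.12 to 0.35, over 0.1 in 10 of 18 pairs, and a library was most like its own number in 9 of 36 matches, but 12 of the 18 pairs shared the adjustment number and the others differed by 1. With a replicate block 2 of the 9 were called in both comparisons, Fth1 joining Hmox1 (adjusted p = 0.0146 and 0.0483), Hfe was called in APP control (0.0427) and Slc39a14 in APP anti-miR-mix (0.0492), and calls over all genes went from 908 to 1222 and from 1727 to 2202. Only APP anti-miR-mix has a replicate 7, so the block also takes that library out of the group differences. Of the wider list, 3 calls in APP control became 1 with edgeR (3.22% of all genes called) and 5 with the replicate block (6.33%). They became 1 to 5 without 1 library. The 6 in APP anti-miR-mix became 3 with edgeR (6.06%), 3 with the adjustment number as a factor (8.98%) and 8 with the replicate block (11.4%). Without 1 library they became 2 to 7. The shares of all genes without 1 library are not given here. No alternative called any member between the transgenic groups, no call of a member reversed, and none of the 6 ratio tests passed the threshold under any alternative, although without 1 library the log2 difference in Fth1 to Ftl1 of APP anti-miR-mix from WT control ranged from −0.134 to 0.00361 and that in Tfrc to Fth1 between the transgenic groups from −0.116 to 0.184. For APP control against WT control, the Tfrc to Fth1 difference ranged from −0.329 to −0.0295 without 1 library. The Fth1 to Ftl1 difference of the same groups ranged from 0.0420 to 0.159. Centring on the adjustment number and the marker correlations without APP control 5 were added after seeing the data. The counts of Ftl1, 32 to 76 per library, limit its precision.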
